A study of Rattus norvegicus with 7 samples.

Results

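The nuclear genes for proteins of the mitochondrial ribosome were followed in whole lenses of the Ihara Cataract Rat (strain ICR/Ihr), a recessive hereditary model in which the lens becomes opaque as the animal grows. The genes were chosen by name, from transcript clusters of the array with a single gene symbol. The symbol had to read Mrpl or Mrps (large or small subunit) followed by a number and at most 1 letter. Of 18166 named genes on the array, 71 met the rule, 44 with an Mrpl and 27 with an Mrps symbol, and each was read by 1 cluster. Values are RMA signals on a log2 scale, on which 1 unit is a doubling. A signal of 5 on at least 1 array, the floor given in the study's methods, was reached by 45 of the 71 genes (63.4%, against 28.4% of all named genes), and these 45 were tested together with all 5168 genes that reached it.

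Total RNA from 7 lens samples was hybridised to 7 arrays, 1 for each age. The sample titles give a lens and an age without the number of lenses, so a lens below stands for the sample of 1 array. The 2- and 4-week-old lenses had no cataracts, the 8- and 10-week-old lenses had cortical opacity, the 12-week-old lens had posterior subcapsular opacity and the 14- and 18-week-old lenses had nuclear opacity. All 7 came from the same cataract strain, with no treatment given in the labels and no lens of a strain that stays clear among them, so age and opacity cannot be told apart. The 2 arrays of a stage were of different ages and, as the study's methods state that rats were euthanized, of different animals. No 2 arrays share an age, so the spread within a stage holds change with age as well as variation between animals and arrays. The p-values of the stage comparisons set a difference against this spread, and those of the age trend set a slope against the scatter around a line. The lens was taken from culture medium before RNA extraction, and the study's methods state that the rats were male.

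Mitochondria carry their own ribosome, which makes the few proteins that mitochondrial DNA encodes, all of them core parts of the respiratory chain and the ATP synthase. Its RNAs come from mitochondrial DNA, but every one of its proteins is encoded in the nucleus, made in the cytosol and imported. Some of these proteins descend from those of the bacterial ribosome, and others were added during mitochondrial evolution. In the lens, mitochondria are kept in the surface epithelium and the youngest fibres, and they are cleared together with the nucleus as a fibre matures, so that the central lens has none.

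The labelled tissue was borne out by its markers. Of 8 listed lens fibre markers, 4 were matched on the array (Cryba1, Mip, Bfsp1 and Lim2), with a summed signal of 14.2 to 14.49 over the 7 arrays. All 4 were below 0 in nuclear opacity against no cataracts, with a median of -0.32 against -0.05 for all genes. None of the 4 passed, and their part in the results was not tested. The 7 epithelial markers were all above the floor but not level. Cryab, a crystallin also abundant in fibres, carried their sum of 13.49 to 13.54 with 13.17 to 13.28, while Gja1, a gap junction protein of the epithelium, read 8.13 at 2 weeks, 6.96 at 4 weeks and 6.42 to 6.80 later. Against lenses without cataracts, 6 of the 7 were lower with cortical opacity (63.6% of all genes tested) and 5 with nuclear opacity (57.5%). None of the 7 passed, and the part of these markers in the results was not tested. Blood markers were dim, with sums of 2.90 to 3.32 for the 2 of 5 listed that were on the array, and no marker among them reached 5. Markers of tissue next to the lens were not level. The 7 ciliary body and zonule markers summed to 10.1 at 2 weeks, 9.15 at 4 weeks and 7.49 to 8.50 from 8 weeks on, and the 6 pigment cell markers to 8.23 at 2 weeks and 5.02 to 5.61 from 4 weeks on. All 7 ciliary body and zonule markers were below 0 with cortical, posterior subcapsular and nuclear opacity (background 63.6%, 69% and 57.5%). Their medians were -1.80, -1.31 and -1.41. After adjustment 1 of the 7 fell in nuclear opacity (background 4.06%) and 1 with age (background 5.03%). Of the pigment cell markers 2 reached 5, and neither passed. The part of this adjoining tissue in the differences from lenses without cataracts was not tested. In a whole lens, fewer cells of a type and less RNA per cell cannot be told apart.

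Promoter sequences are shown first for the 2 genes that passed a test, Mrpl55 and Mrps18a, because their signals ran in opposite directions with age. Each sequence runs from 250 bases before to 50 bases after the RefSeq start site on the rat assembly GRCr8, and capitals mark a match to a motif known from promoters of mitochondrial genes. The motifs, searched on both strands, were, for NRF1, GCGCA and GCGC with any base between them, CCGGAAG for factors of the ETS family such as Gabpa, and AAGATGGCG for YY1. The Mrpl55 window lies at chr10:44488003-44488302 on the plus strand and held none of the 3, and the Mrps18a window lies at chr9:22367331-22367630 on the minus strand and held an ETS motif starting 38 bases before the start site and a YY1 motif at the start site itself.
Mrpl55: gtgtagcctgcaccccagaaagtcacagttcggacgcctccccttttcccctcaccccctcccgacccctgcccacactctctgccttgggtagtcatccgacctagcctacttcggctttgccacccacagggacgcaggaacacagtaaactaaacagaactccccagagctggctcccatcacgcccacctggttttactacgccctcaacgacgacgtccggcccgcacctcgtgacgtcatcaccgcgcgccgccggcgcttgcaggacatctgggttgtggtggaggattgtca
Mrps18a: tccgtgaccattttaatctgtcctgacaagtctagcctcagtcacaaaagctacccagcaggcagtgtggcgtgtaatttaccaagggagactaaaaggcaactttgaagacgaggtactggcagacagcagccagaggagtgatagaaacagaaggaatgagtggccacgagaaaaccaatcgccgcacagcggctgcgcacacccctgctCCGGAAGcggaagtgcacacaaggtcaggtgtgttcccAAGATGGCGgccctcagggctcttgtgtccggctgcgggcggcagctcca
A match describes letters only, and a window without one says nothing about the factor.

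Mrps18a has 2 relatives in the same family, Mrps18b and Mrps18c, and mammals keep all 3 as separate genes for ribosomal proteins related to the same bacterial one. Their motif windows of 30 bases are given here because the 3 signals did not run alike. The Mrps18b window (chr20:2842976-2843005, plus strand) holds the NRF1 motif, which is its own reverse complement in this form, starting 20 bases before the start site, and the next (chr20:2842992-2843021, plus strand) holds the ETS motif on the other strand 3 bases before it. The Mrps18c window (chr14:9123027-9123056, minus strand) holds an ETS motif on the other strand farther upstream. For comparison, windows of Mrps10 and Mrpl37 are given, 2 of the next lowest genes in nuclear opacity. Those at chr9:21122404-21122433 (Mrps10, minus strand) and chr5:127074942-127074971 (Mrpl37, minus strand) each hold the YY1 motif, 31 and 7 bases into the transcript. The Mrps10 promoter also holds an ETS motif at the start site (chr9:21122435-21122464, minus strand, window not printed). It thus has both motifs found for Mrps18a, although its signal ran the other way.
Mrps18b NRF1: tccttgtccgGCGCATGCGCagtcgttctt
Mrps18b ETS: gcgcagtcgttCTTCCGGcaggccgtacgt
Mrps18c ETS: gtgtcacgtgaCTTCCGGcccggggagcgc
Mrps10 YY1: tcagggcaccAAGATGGCGgcgcgcgcagc
Mrpl37 YY1: tgcccgggcaAAGATGGCGgcgtccaggta

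A promoter entry was matched for 57 of the 71 genes. The YY1 motif occurred in 9 of the 57 (15.8%) and in 2.29% of 18999 protein-coding promoters of the same length. The ETS motif occurred in 20 (35.1%, against 11.2%) and the NRF1 motif in 9 (15.8%, against 6.08%). At least 1 of the 3 was found in 30 of the 57 promoters (52.6%, against 17.6%). The base composition was near that of the other promoters, with a median GC content of 56% against 55.3%. Among the 36 tested genes with a promoter entry, the median difference between nuclear opacity and no cataracts was -0.12 for the 17 with an ETS motif and -0.17 for the 19 without. It was -0.09 for the 6 with a YY1 motif and -0.14 for the 30 without, and -0.115 for the 7 with an NRF1 motif and -0.134 for the 29 without. With posterior subcapsular opacity the YY1 order was reversed, -0.27 with the motif and -0.18 without, while the ETS and NRF1 orders were kept. These pairs of medians lie close together beside the spread of the genes, and they were not tested.

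The distance between a gene's lowest and highest array had a median of 0.51 in the 45 tested genes, against 0.54 in all 5168, and 22 of the 45 stayed within 0.5. A distance of at least 1 was found in 2 genes, Mrpl55 and Mrps10 (4.44%, against 13.3% of all genes tested). Among the flattest, Mrps15 gave 6.21, 6.24, 6.26, 6.24, 6.24, 6.15 and 6.41 from the youngest to the oldest lens, and Mrpl51 gave 5.47, 5.37, 5.31, 5.31, 5.23, 5.31 and 5.31. As in Mrpl51, values that coincide within 0.001 on 3 or more arrays occurred in 16 of the 45 genes (35.6%, against 23.5% of all).

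**Figure D1:**
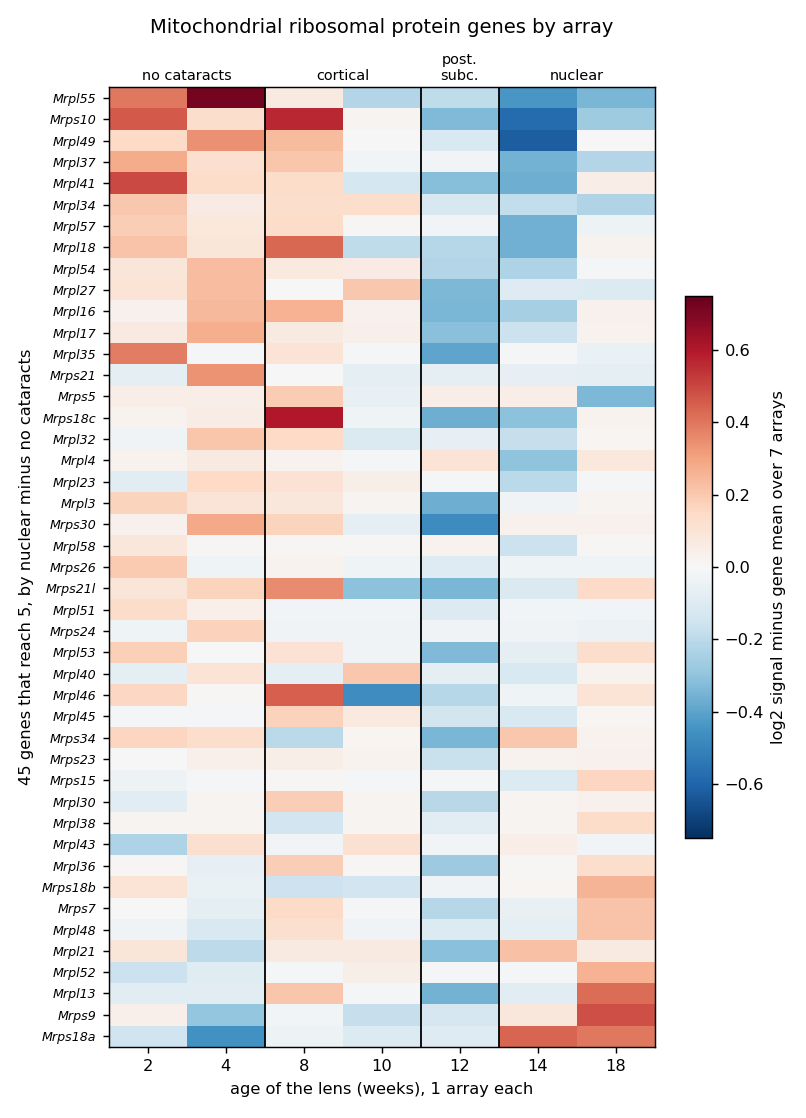
Log2 signal of each of the 45 tested genes on each of the 7 arrays, minus that gene's own mean over the 7 (colour scale in log2 units). Columns are ages in weeks with the stage above them, and rows run from the lowest to the highest difference between nuclear opacity and no cataracts. The 12-week column is blue in 42 of 45 rows, and Mrpl55 is the first row and Mrps18a the last.

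The question for the first set of comparisons was whether any of these genes changed between lenses without cataracts and each later stage. With nuclear opacity, 1 gene of 45 fell, Mrpl55 (background 4.06% of all genes tested lower), and 1 rose, Mrps18a (background 2.03% higher). With cortical opacity 0 of 45 genes passed and with posterior subcapsular opacity 0 of 45, where 0% of all 5168 genes passed in either direction in limma's test with Benjamini-Hochberg adjustment at 0.05. Without adjustment, a p under 0.05 was reached by 1 of 45 genes lower and 0 higher with cortical opacity (background 12.9% and 3.13%), by 11 lower and 0 higher with posterior subcapsular opacity (24.4% lower, background 18.4% and 3.48%), and by 4 lower and 1 higher with nuclear opacity (background 15.4% and 9.67%). The shares of called genes were thus near or under those of all genes, except for the unadjusted lower share with posterior subcapsular opacity. Differences below 0 numbered 26 with cortical opacity (57.8%, background 63.6%), 38 with posterior subcapsular opacity (84.4%, background 69%) and 31 with nuclear opacity (68.9%, background 57.5%). Over all genes 105 rose and 210 fell in nuclear opacity as deposited, and 189 and 237 after quantile normalization.

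Mrpl55 encodes a large subunit protein with a bacterial counterpart. Its signal was 6.19 and 6.52 in the 2- and 4-week-old lenses, 5.87 and 5.58 at 8 and 10 weeks, 5.61 at 12 weeks, and 5.36 and 5.46 at 14 and 18 weeks. Both lenses without cataracts were above all 5 later lenses, and both lenses with nuclear opacity were below all others. The difference between nuclear opacity and no cataracts was -0.95 ± 0.16 (SE, limma, adjusted p = 0.0380), a level 1.93-fold lower. The differences at the earlier stages ran the same way without passing, -0.63 ± 0.16 with cortical opacity (limma, adjusted p = 0.195) and -0.75 ± 0.20 with posterior subcapsular opacity (limma, adjusted p = 0.127). Fitted as a line over age, Mrpl55 fell by 0.067 per week (SE 0.014, limma, adjusted p = 0.0279). It was the only member of the 45 to pass the age trend in either direction (background 5.03% lower and 3.66% higher, or 260 and 189 genes, and 278 and 309 after quantile normalization). Slopes were below 0 in 32 of the 45 genes (71.1%, background 59.2%), and without adjustment 5 were lower and 2 higher (background 15.7% and 10.2%).

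Mrps18a was named for the small subunit, but in mammals its protein sits in the large one. It gave 6.29 and 5.98 at 2 and 4 weeks, 6.40 and 6.33 at 8 and 10 weeks, 6.34 at 12 weeks, and 6.87 and 6.83 at 14 and 18 weeks. The lenses with nuclear opacity were higher than all 5 others. The difference from lenses without cataracts was 0.72 ± 0.13 (SE, limma, adjusted p = 0.0416), or 1.65-fold. Against cortical opacity it was 0.49 ± 0.13 (limma, adjusted p = 0.340), and the slope was 0.047 ± 0.013 per week (limma, adjusted p = 0.0662).

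The calls for Mrpl55 and Mrps18a in nuclear opacity rested on the pooled spread of all stages. In 6 of the 7 fits that left out 1 array, neither passed. With the array of 2 weeks left out, the difference of Mrpl55 was -1.11 (limma, adjusted p = 0.161) and that of Mrps18a was 0.87 (limma, adjusted p = 0.161). With that of 4 weeks left out, they were -0.78 (limma, adjusted p = 0.127) and 0.57 (limma, adjusted p = 0.107), and these were the extremes of the 7 fits. The call of Mrpl55 in the age trend was kept without the 10-week-old or the 18-week-old lens and lost without any of the other 5.

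Mrps18b and Mrps18c, both of the small subunit, did not follow Mrps18a. Mrps18b read 5.73 and 5.58 in lenses without cataracts, 5.47 and 5.48 with cortical opacity, 5.60 with posterior subcapsular opacity, and 5.64 and 5.88 with nuclear opacity. This is a shallow dip with no difference that passed (nuclear opacity against no cataracts 0.11 ± 0.12, limma, adjusted p = 0.616). Mrps18c read 5.65, 5.68, 6.23, 5.59, 5.26, 5.32 and 5.65 from 2 to 18 weeks, with the 8-week-old lens above all others, and its difference in nuclear opacity was -0.18 ± 0.23 (limma, adjusted p = 0.665). The difference between the 3 relatives was not tested, and each was read by its own probes, so that their levels are not set against each other.

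**Figure D2:**
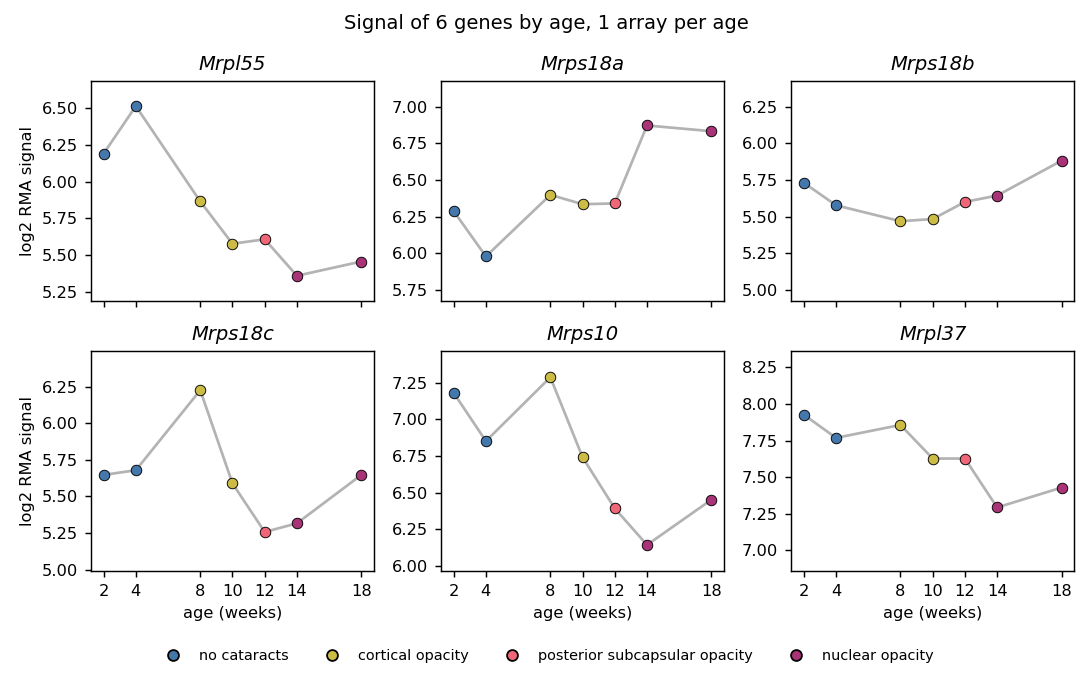
Log2 RMA signal of 6 genes by age in weeks, 1 point for each array, coloured by stage, with each panel's axis spanning the same number of log2 units. Mrpl55, Mrps10 and Mrpl37 ended lower than they began, Mrps18a stepped up at 14 and 18 weeks, and Mrps18b and Mrps18c ended near where they began.

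The next lowest differences in nuclear opacity did not pass. Mrps10, the counterpart of a bacterial small subunit protein, gave 7.18 and 6.85 at 2 and 4 weeks, 7.29 and 6.74 at 8 and 10 weeks, 6.39 at 12 weeks, and 6.14 and 6.45 at 14 and 18 weeks. Its 12-, 14- and 18-week-old lenses lay below the 4 younger ones, and the difference in nuclear opacity was -0.72 ± 0.23 (limma, adjusted p = 0.137). Mrpl37, a large subunit protein without a bacterial counterpart, gave 7.93, 7.77, 7.86, 7.63, 7.63, 7.29 and 7.43 over the ages (-0.49 ± 0.13, limma, adjusted p = 0.0883). Mrpl34, which has a bacterial counterpart in the large subunit, gave 6.82, 6.69, 6.75, 6.76, 6.50, 6.44 and 6.40 (-0.34 ± 0.10, limma, adjusted p = 0.105). In both, the lenses with nuclear opacity were below those without cataracts and those with cortical opacity.

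Mrpl49 and Mrpl41, 2 mitochondria-specific proteins of the large subunit, also had low differences that did not pass. Mrpl49 was 5.27, 5.47, 5.36, 5.13, 5.01, 4.51 and 5.13 from the youngest to the oldest lens, so that its difference of -0.55 ± 0.23 (limma, adjusted p = 0.210) came mostly from the 14-week-old lens. Mrpl41 was 6.31, 5.96, 5.96, 5.68, 5.50, 5.45 and 5.87, highest in the 2-week-old lens, with -0.48 ± 0.21 (limma, adjusted p = 0.223).

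Of the 45 differences in nuclear opacity 14 were above 0, and Mrps18a was the only one of these to pass. Mrps9, with a bacterial counterpart in the small subunit, read 5.35 and 5.02 without cataracts and 5.40 and 5.80 with nuclear opacity (0.41 ± 0.18, limma, adjusted p = 0.236). Mrpl52, a mitochondria-specific protein of the large subunit, read 7.24 and 7.32 without cataracts, 7.39, 7.45 and 7.39 at 8, 10 and 12 weeks, and 7.39 and 7.67 with nuclear opacity (0.25 ± 0.12, limma, adjusted p = 0.272). Mrpl13 rested on 1 lens: it gave 5.49 at 2, 4 and 14 weeks alike and 5.99 at 18 weeks, and its difference went from 0.25 to -0.003 when the 18-week-old lens was left out. Mrpl48, a mitochondria-specific protein of the large subunit, read 6.55 and 6.46 without cataracts and 6.50 and 6.78 with nuclear opacity (0.14 ± 0.13, limma, adjusted p = 0.557), and it too went to -0.0033 without the 18-week-old lens. Both lenses with nuclear opacity were above both without cataracts in 3 of 45 genes, Mrps18a, Mrps9 and Mrpl52 (6.67%, background 21.6%), and below them in 13 (28.9%, background 33.1%).

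**Figure D3:**
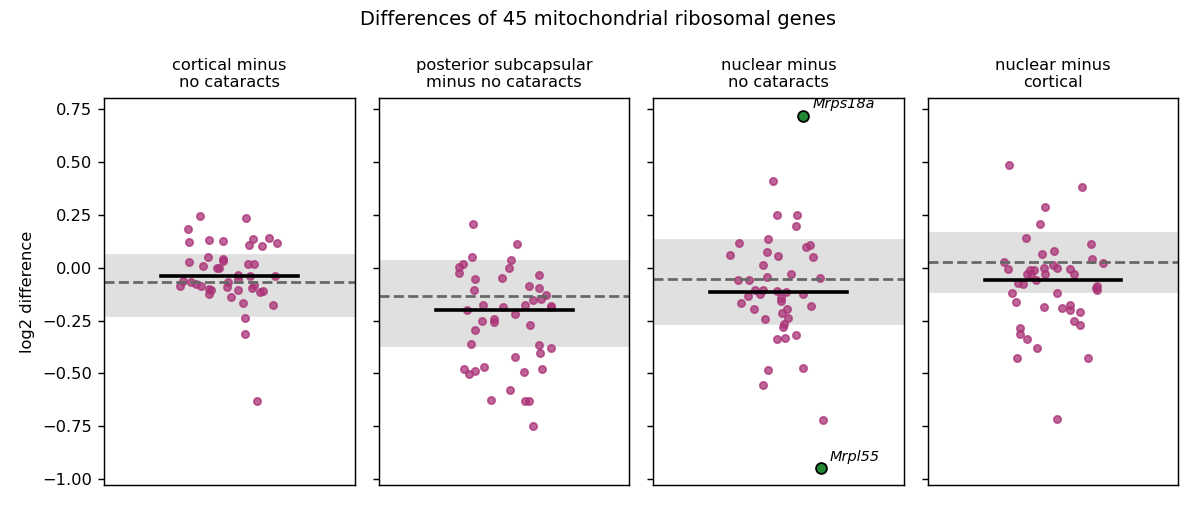
Log2 differences of the 45 tested genes in 4 comparisons of stages, 1 point for each gene, with sideways scatter for legibility only. The black bar is their median, the dashed line is the median of all 5168 genes tested, and the grey band runs from their lower to their upper quartile. The band left 3 points below and 11 above with cortical opacity, 14 and 4 with posterior subcapsular opacity, 9 and 6 with nuclear opacity, and 17 and 4 for nuclear against cortical opacity. Mrpl55 and Mrps18a, the 2 genes that passed in nuclear opacity, are green there.

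The 12-week-old lens, the only one with posterior subcapsular opacity, held the lowest value of 19 of the 45 genes (42.2%, background 25.5%), and 42 of the 45 were below their own mean there (93.3%, background 72.4%). The genes above their mean at 12 weeks were Mrpl4, Mrpl58 and Mrps5. The 14-week-old lens held the lowest value of a further 14 (31.1%, background 18%). The highest value fell at 8 weeks in 11 genes (24.4%, background 13.1%), at 4 weeks in 11 (background 15.6%) and at 2 weeks in 10 (22.2%, background 29%). The median deviation from a gene's own mean was 0.05, 0.06, 0.10 and -0.01 at 2, 4, 8 and 10 weeks, -0.13 at 12 weeks, -0.07 at 14 weeks and 0.03 at 18 weeks. All genes tested moved with it in part, with -0.07 at 12 weeks and -0.02 at 14 weeks.

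The lowest differences at 12 weeks after that of Mrpl55 were those of Mrpl41, Mrps30, Mrps10, Mrpl35 and Mrpl27, from -0.63 to -0.50. Mrps30, a mitochondria-specific protein which in mammals lies in the large subunit despite its symbol, gave 5.65 and 5.91 without cataracts, 5.79 and 5.55 with cortical opacity, 5.15 at 12 weeks, and 5.65 at both 14 and 18 weeks (-0.63 ± 0.17, limma, adjusted p = 0.127). Mrpl35, a large subunit protein with a bacterial counterpart, gave 5.91, 5.51, 5.63, 5.51, 5.13, 5.51 and 5.48 (-0.58 ± 0.19, limma, adjusted p = 0.168). Mrpl27, which also has one, gave 5.99, 6.12, 5.89, 6.09, 5.55, 5.80 and 5.79 (-0.50 ± 0.14, limma, adjusted p = 0.135). In each of the 3 the 12-week-old lens was the lowest of the 7.

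Mrpl3, a large subunit protein near the site of peptide bond formation, had the smallest p of the 45 genes at 12 weeks and is named for that after its values were seen. It read 5.96, 5.89, 5.88, 5.81, 5.43, 5.76 and 5.81, a difference of -0.50 ± 0.11 (limma, adjusted p = 0.103). None of the 45 passed at 12 weeks, and a single lens carries that stage, its spread being taken from the other stages. On the side of higher values, the largest difference at 12 weeks was that of Mrps18a (0.21 ± 0.16, limma, adjusted p = 0.499). The 12-week-old lens lay above both lenses without cataracts in Mrpl4, Mrpl52 and Mrps18a alone (6.67%, background 18.9%), and below both in 31 genes (68.9%, background 58%).

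Whether the low values at 12 and 14 weeks belong to the scaling of the arrays was followed by quantile normalization, which gives all arrays the same distribution. The median deviation of the 45 genes was then -0.10 at 12 weeks and -0.05 at 14 weeks, while that of all genes was 0.0016 and 0.01. The 12-week-old lens held the lowest value of 16 genes (all genes 17.2%) and 33 of the 45 were below their own mean there (all genes 49.5%). The median difference between posterior subcapsular opacity and no cataracts was -0.20 as deposited, where that of all genes was -0.13. Quantile normalization moved the median of all genes to -0.00017, and median centring moved it to -0.21. Relative to the median of all genes, the family stood at -0.07 as deposited, -0.10 after quantile normalization and -0.07 after median centring.

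**Figure D4:**
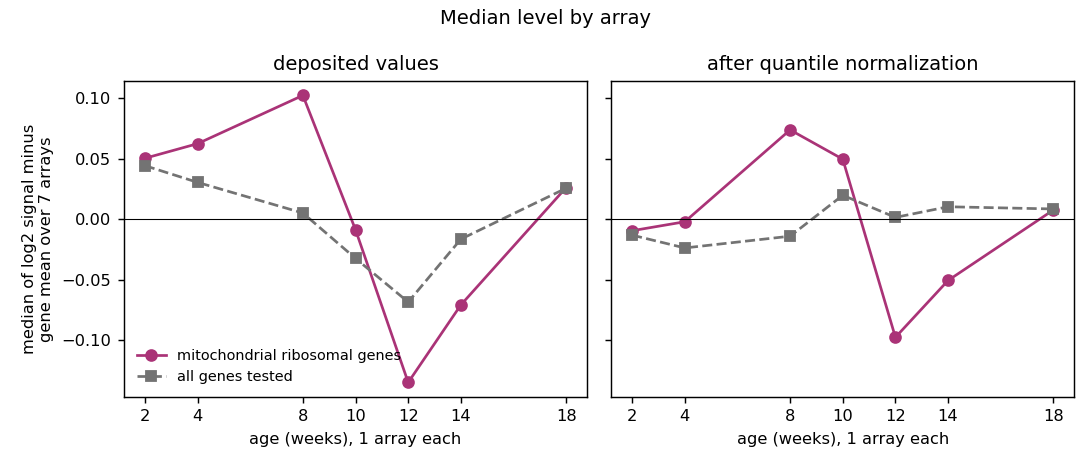
Median over genes of the log2 signal minus each gene's own mean, by age in weeks, for the 45 mitochondrial ribosomal genes (circles) and all 5168 genes tested (squares), from the deposited values on the left and after quantile normalization on the right. The 45 genes were highest at 8 weeks and lowest at 12 weeks on both sides, at 0.10 and -0.13 on the left.

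With cortical opacity the median difference was -0.04, against -0.07 for all genes, and it turned to 0.04 after quantile normalization, when that of all genes was 0.01. Among the higher ones, Mrpl30, a large subunit protein with a bacterial counterpart, read 5.83 and 5.93 without cataracts and 6.10 and 5.93 with cortical opacity (0.13 ± 0.10, limma, adjusted p = 0.593). The lens at 8 weeks and the lens at 10 weeks differed from each other: Mrpl46, a mitochondria-specific large subunit protein, read 6.10 at 8 weeks and 5.18 at 10 weeks, its highest and its lowest value, and Mrps10 read 7.29 and 6.74. With nuclear opacity the median difference was -0.12 against -0.05 for all genes, or -0.06 relative to them, and -0.07 and -0.06 relative to them after quantile normalization and median centring. Without the 14-week-old lens the median for nuclear opacity was -0.05.

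Nuclear opacity was also set against cortical opacity, to ask what differed between the opaque stages. In this comparison 0 of 45 genes passed in limma's test (background 0.0193% higher and 0% lower), and 3 lower and 1 higher had an unadjusted p under 0.05 (background 4.41% and 6.73%). The genes lower were Mrps10 (-0.72 ± 0.23, limma, adjusted p = 0.385), Mrpl37 (-0.38 ± 0.13) and Mrpl34 (-0.34 ± 0.10). Of the 45 differences, 32 were below 0 (71.1%, against 43.8% of all genes), with a median of -0.06 against 0.02 for all genes. Leaving out the array of 8 weeks brought that median to 0, leaving out that of 14 weeks brought it to -0.02, and it was -0.12 when either the array of 10 or that of 18 weeks was dropped. Relative to all genes it stood at -0.08 as deposited, -0.10 after quantile normalization and -0.08 after median centring. Mrpl38, a mitochondria-specific large subunit protein, was among the higher ones, with 5.22 and 5.39 in cortical and 5.39 and 5.51 in nuclear opacity (0.14 ± 0.11, limma, adjusted p = 0.635). The lenses of the 2 stages did not overlap in 10 genes that were lower with nuclear opacity (22.2%, background 14.6%) and in 4 that were higher (8.89%, background 23%), Mrps18a, Mrps18b, Mrps34 and Mrps9.

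By structure, 32 of the tested genes belong to the large subunit and 12 to the small one, and Mrps21l, a near copy of Mrps21 on chromosome 18, to neither here. The large subunit genes had a median of -0.05 with cortical, -0.25 with posterior subcapsular and -0.13 with nuclear opacity, and the small subunit genes one of 0.01, -0.18 and -0.07. The 23 genes with a bacterial counterpart had medians of 0.00079, -0.25 and -0.17, and the 21 counted as specific to mitochondria -0.08, -0.18 and -0.06. Mrps18a and Mrps18b were counted among the 21, although they are related to the same bacterial protein as Mrps18c. Each of these groups held genes above and below 0 in all 3 comparisons, and no difference between the groups was tested. Mrps21 read 5.40 at 4 weeks and 4.99 to 5.06 at the other ages, and Mrps21l read 5.37 at 8 weeks and 4.67 to 5.18 elsewhere. Their probes may share target sequence, so both are uncertain.

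The 26 genes under 5 on every array are described apart. Their mean signals ran from 2.21 (Mrpl42) to 4.81 (Mrps12), and none passed in a fit over all 18166 genes in any of the 5 comparisons, where no gene at all passed between stages (background 0%) and 0.617% of all genes passed in the age trend. An unadjusted p under 0.05 was reached by 0 of the 26 with cortical opacity (background 8.31% in either direction), 3 with posterior subcapsular opacity (background 15.1%), 2 with nuclear opacity (background 11.8%), 2 between nuclear and cortical opacity (background 6.79%) and 2 in the age trend (background 12.5%). Mrps33, of the small subunit, had the largest difference: 4.47, 4.51, 4.88 and 3.97 at 2 to 10 weeks, 3.35 at 12 weeks, and 4.47 and 4.66 at 14 and 18 weeks (-1.14 at 12 weeks). Its lowest lens was again that of 12 weeks, at a signal where the array resolves little. Just outside the floor were Mrpl50, Mrps33, Mrps12, Mrpl28 and Mrpl15, whose brightest arrays read 4.87, 4.88, 4.92, 4.96 and 4.96. Just inside were Mrpl18, Mrps23, Mrpl16, Mrpl21, Mrpl45 and Mrpl43, with 5.04, 5.09, 5.10, 5.12, 5.14 and 5.14. A near copy of another member, Mrpl41l1, read 3.11 to 3.64 and was not counted among the 71, because its symbol is longer than the rule allows.

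Proteins of the same ribosome that carry other symbols were also low at 12 weeks. Of 5 listed, 3 reached the floor: Ptcd3, which binds RNA in the small subunit, Chchd1 and Aurkaip1, also of the small subunit. Ptcd3 read 5.91 and 5.76 at 2 and 4 weeks, 5.72 and 5.42 at 8 and 10 weeks, 5.07 at 12 weeks and 5.37 and 5.57 at 14 and 18 weeks. Its difference at 12 weeks was -0.77 ± 0.17 (limma, adjusted p = 0.105), and that of Chchd1 was -0.66 ± 0.17 (limma, adjusted p = 0.124). Neither these nor Aurkaip1 passed in any comparison, and the 12-week-old lens was the lowest for Ptcd3 and Chchd1.

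Of the genes that assemble and serve this ribosome, few reached the floor, and 2 passed, both higher with age. In the age trend 3.66% of all genes tested rose and 5.03% fell. Among 8 tested translation factors, 1 rose, Oxa1l, which inserts newly made proteins into the inner membrane: 6.86, 6.99, 6.91, 7.12, 7.14, 7.22 and 7.53 over the ages, a slope of 0.038 ± 0.0084 per week (limma, adjusted p = 0.0325). Among 6 tested assembly and ribosomal RNA modification genes, 1 rose, C1qbp, a matrix protein that binds RNA: 6.08, 6.51, 6.69, 6.62, 6.46, 6.82 and 7.11, or 0.049 ± 0.012 per week (limma, adjusted p = 0.0454). With 1 array left out, Oxa1l was called only without the 8-week-old lens and C1qbp only without the 12-week-old lens, and neither was called after median centring. None of 2 genes that charge mitochondrial tRNAs or modify a charged one (Wars2, a tRNA ligase, and Gatc, an amidotransferase subunit), 3 genes of mitochondrial DNA and RNA synthesis and 2 transcriptional regulators (Gabpa and Yy1) passed. Gabpa, a subunit of the ETS-family factor named above, had a slope of -0.027 ± 0.0085 per week (limma, adjusted p = 0.0918), and Yy1 one of 0.018 ± 0.0089 (limma, adjusted p = 0.238).

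The products of the mitochondrial ribosome join nuclear-encoded partners in the respiratory chain and the ATP synthase. Of the nuclear-encoded subunits of these complexes, whether or not direct partners, 65 were tested. With nuclear opacity 5 fell and none rose (Ndufa11, Ndufa12, Ndufs4 and Ndufs7 of complex I and Uqcr11 of complex III; background 4.06%), and 7 fell with age (background 5.03%). All 5 calls in nuclear opacity were kept without the 12-week-old lens and lost without any 1 of the other 6. The 12-week-old lens was alone in its stage, so leaving it out could not change those calls. In the age trend 1 gene fell without the 2- or the 4-week-old lens, 3 without the 8-, 10- or 14-week-old lens, 5 with the array of 12 weeks dropped and 14 with that of 18 weeks dropped, Uqcr11 in each of the 7 fits. Ndufs7, a core subunit that carries an iron-sulfur cluster, read 7.24 and 7.20 without cataracts, 6.71, 6.71 and 6.67 at 8, 10 and 12 weeks, and 6.12 and 6.35 with nuclear opacity (-0.98 ± 0.11, limma, adjusted p = 0.0192). The medians of the 65 genes were -0.13, -0.36 and -0.32 with cortical, posterior subcapsular and nuclear opacity, where the 45 mitochondrial ribosomal genes had -0.04, -0.20 and -0.12 and all genes -0.07, -0.13 and -0.05. Relative to all genes the respiratory chain stood at -0.27 in nuclear opacity as deposited, -0.26 after quantile normalization and -0.26 after median centring. The difference between the lists was not tested.

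The cytosolic ribosomal proteins were taken by a symbol rule that also admits copies with a letter and a number added to the name. Of 127 such genes on the array, 79 were tested. They had medians of 0.06, -0.06 and 0.06 in the same comparisons, and the posterior subcapsular one turned to 0.04 after quantile normalization. None of the 79 passed between stages, and 2 rose with age (background 3.66%), Rps14 and Rps12l3, the second by its name a copy of Rps12. After quantile normalization 5 rose with age and 1, Rps14, in nuclear opacity, and after median centring 1 rose with age. With 1 array left out, 0 rose with age without the 4-week-old lens and 1 or 2 otherwise. The 15 tested import complex genes had medians of 0.04, 0 and 0.11 and none passed. Their medians were 0.17, 0.14 and 0.22 over 14 genes after quantile normalization, with 1 called higher with age, and 0.00081, -0.08 and 0.08 after median centring. With 1 array left out, 1 rose with age when that of 14 weeks was dropped and 1 when that of 18 weeks was. For mitochondrial content, 10 genes were tested and 1 fell with age (background 5.03%), Hspd1, the matrix chaperonin. It went from 7.20 at 2 weeks to 6.22 at 18 weeks (slope -0.052 ± 0.012 per week, limma, adjusted p = 0.0326). Slopes were above 0 in 4 of the 10 and below 0 in 6. Their median was -0.0030 per week, against -0.0044 for all genes. Of 7 genes tied to the loss of organelles in lens fibres, Hsf4, a heat shock factor needed for fibre maturation, fell in nuclear opacity (-0.92 ± 0.14, limma, adjusted p = 0.0315) and with age (background 4.06% and 5.03%), and Plaat3, a phospholipase that breaks down organelle membranes in the lens, fell with age (-0.043 ± 0.010 per week, limma, adjusted p = 0.0361). The call of Hsf4 in nuclear opacity was lost without any 1 array other than that of 12 weeks, and its age call was kept in all 7 such fits. Leaving out the array of 12 weeks could not change the call of Hsf4 in nuclear opacity, as it was alone in its stage. In the age trend Hspd1 was called only without the 10- or the 14-week-old lens, and Plaat3 only without the 8-week-old lens.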

How the data were processed

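The authors hybridised RNA from 7 lens samples to GeneChip Rat Gene 2.0 ST arrays and deposited RMA-normalized log2 signals for 36685 transcript clusters, and per the study's methods RMA was run in R. The number of arrays limits the precision. Clusters were named through the platform annotation (18511 with 1 symbol, 575 with several, 17599 with none). Of the 18511, 18394 took the current RefSeq symbol, whether or not it differed, and 117 kept the array's symbol. Where a gene had several clusters the one of highest mean was kept. All genes that reached 5 on at least 1 array were fitted with limma 3.58.1 in R 4.3.3, with 1 mean per stage and the spread pooled over stages (3 residual degrees of freedom), or with age in weeks as a line. The lone 12-week-old lens was assumed to vary like the others. Adjustment was by Benjamini-Hochberg over 5168 genes at 0.05. An SE is limma's moderated standard error, and a count beside a background gives the share of all genes tested that met the same rule.

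Members and lists were chosen with earlier results of these data known. Genes of the family named were those that passed a test, the 6 with the largest difference in each direction for each pair of stages, the relatives of Mrps18a and those within 0.15 of the floor. The fixed rule also held the 5 members of highest and of lowest mean, which were not ranked because levels of different probes are not compared. Mrpl3, Mrpl4, Mrpl42, Mrpl46, Mrpl51, Mrpl58, Mrps5 and Mrps33 were singled out after their values were seen where they fall outside this rule. Of the other lists, those of respiratory chain, cytosolic ribosomal and import genes were taken by symbol, and the rest written by hand. Muscle markers were read too, and 1 of 3 on the array reached the floor (Ckm, 4.91 to 5.51), with no call. No cluster of a mitochondrially encoded protein was matched by symbol. The fit was tested on simulated data. Of 75 protein-coding family genes in RefSeq, 4 (Mrpl33, Mrpl39, Mrps2 and Mrps22) were not analysed here. Promoters are from RefSeq (GRCr8), and 14 members without an entry are Mrpl and Mrps genes left out of the motif counts. Alternatives were another floor or none, other cluster choices, quantile normalization or median centring, another prior, array weights, fewer arrays and the logarithm of age.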

Additional observations from a re-analysis of the deposited data

How the results depend on the processing

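Mrpl55 and Mrps18a kept the direction of their difference in nuclear opacity under every alternative run, but not the call: 0 of the 45 genes were called when only the arrays of the 2 stages were fitted (adjusted p = 0.0830 and 0.106), 0 of 71 with no floor (adjusted p = 0.156 for both), and 0 to 2 when 1 array was left out, 2 being the fit without the 12-week-old lens. Leaving out the 12-week-old lens could not change a call in nuclear opacity, as it is alone in its stage. Mrpl55 and Mrps18a were both called with a floor of 6, quantile normalization, median centring, a trended and robust prior and array weights. They were also called with either other cluster choice, which could not change their values, because each gene was read by 1 cluster. Over all genes, the calls in nuclear opacity numbered 105 higher and 210 lower as reported, 0 and 0 with no floor, 8 and 15 with only the 2 stages, 189 and 237 after quantile normalization, and 171 and 309 with the trended prior. With 1 array left out they were 105 and 210 without the 12-week-old lens, 8 and 15 without either lens with cortical opacity, and 0 and 0 without any of the other 4. The age trend gave 1 gene as reported, 0 with no floor, 3 with a floor of 6 (Mrpl37, Mrpl55 and Mrps18a), 3 after quantile normalization (Mrpl52, Mrpl55 and Mrps18a) and 0 to 2 with 1 array left out, where Mrpl41 joined Mrpl55 without the 18-week-old lens. The slope of Mrpl55 stayed between -0.086 and -0.051 per week in those fits. Over all genes the age trend gave 189 higher and 260 lower as reported, 309 and 278 after quantile normalization, 49 and 63 with no floor, 184 and 418 with array weights and 182 and 438 on the logarithm of age. With 1 array left out it gave fewest without the 2-week-old lens, 36 and 38, and most without the 18-week-old lens, 126 and 445.

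The median difference of the family in posterior subcapsular opacity was -0.28 after median centring, -0.10 after quantile normalization and -0.27 over the 29 genes without coinciding values, an alternative chosen after seeing the data, and it ran from -0.26 to -0.20 with 1 array left out. In cortical opacity it was 0.037 after quantile normalization and ran from -0.10 to 0.015, changing sign without the 10-week-old lens. In nuclear opacity it was -0.054 after quantile normalization and ran from -0.13 to -0.049, nearest 0 without the 14-week-old lens. Between nuclear and cortical opacity it was -0.12 both with a floor of 6 and over the 29 genes, and ran from -0.12 to 0, reaching 0 without the 8-week-old lens. The median slope ran from -0.016 (without the 18-week-old lens) to -0.0064 per week. The causes were not tested, beyond the fewer genes or arrays that an alternative leaves. For the 49 results on single genes, 717 alternatives kept direction and side of the threshold, 22 lost a call, all of Mrpl55 or Mrps18a, and 13 turned the sign of a difference that was not called or brought it to 0. No paired analysis was possible because the labels give the arrays no shared replicate numbers. The posterior subcapsular comparison has no value without the 12-week-old lens.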
